A study of Rattus norvegicus with 12 samples.

Results

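The 9 imprinted growth genes H19, Igf2, Dlk1, Igf2r, Grb10, Cdkn1c, Plagl1, Peg3 and Mest were followed in poly(A) RNA-seq libraries of neonatal rat ventricular cardiomyocytes. They were taken by gene symbol from the expression files, and all 9 were among the 17312 genes listed. The 12 libraries came from Wistar rat cells in 4 groups of 3: stretched cells given Wnt5a siRNA, unstretched cells given Wnt5a siRNA, stretched cells given control siRNA and unstretched cells given control siRNA. Every group therefore received an siRNA, and the labels call every library cardiomyocyte. The duration of stretch is not given in the sources used here. The labels number the replicates but do not say that they came from separate cultures, so each p-value rests on library-to-library spread that may be only technical.

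In most tissues an imprinted gene is read mainly from the copy inherited from one parent, a pattern known chiefly from mouse and human. Many such genes set the size of the fetus and of its organs, among them the heart. Genes expressed from the paternal copy, such as Igf2, Dlk1, Peg3 and Mest, are mostly growth promoting, and genes expressed from the maternal copy, such as H19, Igf2r and Cdkn1c, mostly restrain growth. H19 and Igf2 are neighbours that share enhancers and are read from opposite parental copies. The FPKM used here do not separate the 2 parental copies, so all values are for both copies together.

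Expression is given in FPKM, fragments scaled to transcript length and to the fragments mapped, as the authors deposited it. The depth behind an FPKM value is unknown, so low values carry an unknown counting error. Changes are differences of log2(FPKM + 1) with their standard error, which understate the change of genes at low levels. They were fitted by limma over all 10518 genes with at least 1 FPKM in at least 3 libraries, and a gene was called at an adjusted p (Benjamini-Hochberg) under 0.05. Of the 9 genes, 8 passed that filter and Dlk1 did not. In bulk RNA a smaller share of a cell type and less RNA per cell cannot be told apart.

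Wnt5a itself, the siRNA target, was at 6.22, 5.88 and 5.56 FPKM in stretched Wnt5a siRNA cells and 6.15, 4.60 and 6.81 in unstretched Wnt5a siRNA cells, against 6.52, 5.66 and 8.22 in stretched control cells and 12.3, 10.4 and 11.6 in unstretched control cells. It was called lower with the siRNA without stretch (log2 change -0.87 ± 0.14, limma adjusted p = 0.00142) and not with stretch (-0.17 ± 0.14, limma adjusted p = 0.387). In stretched cells the siRNA and control groups overlapped in the level of the target, so the label of the siRNA has no check there. Stretched control replicate 3 stood apart from its group: the SD of its log2 differences to the other two was 0.393 and 0.426, against 0.205 to 0.288 for all other replicate pairs. Of 12 cardiomyocyte markers 11 were in the files, and these were present in every library, with summed levels of 19039.8 to 26528 FPKM in stretched Wnt5a siRNA cells, 20246 to 24082 in unstretched Wnt5a siRNA cells, 26717 to 39111 in stretched control cells and 27658 to 30424 in unstretched control cells. Fibroblast markers summed to 10688 to 11422, 6958 to 7255, 6284 to 10102 and 4739 to 5221 FPKM in the same 4 groups, with stretched control replicate 3 the high library of its group. Of the fibroblast markers Col1a2 was listed at 0 in every library while Col1a1 was high, so a listed 0 in these files may be a failed estimate. Sums of FPKM over all genes were 619742 to 659933, 575161 to 607276, 676014 to 709021 and 588509 to 598628 in the same order of groups. Scaling each library to a common sum (TPM scaling) lowered the median log2 change of all genes by stretch with control siRNA to -0.20, against 0.01 as deposited, with 1466 genes higher and 4597 lower in place of 2889 and 2822. With TPM scaling the calls for Wnt5a siRNA with stretch were 2220 higher and 802 lower in place of 1386 and 1489, and for stretch with Wnt5a siRNA 504 and 1758 in place of 888 and 798. For the difference between the 2 stretch changes they were 1608 and 800 in place of 1226 and 1277.

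**Figure D1:**
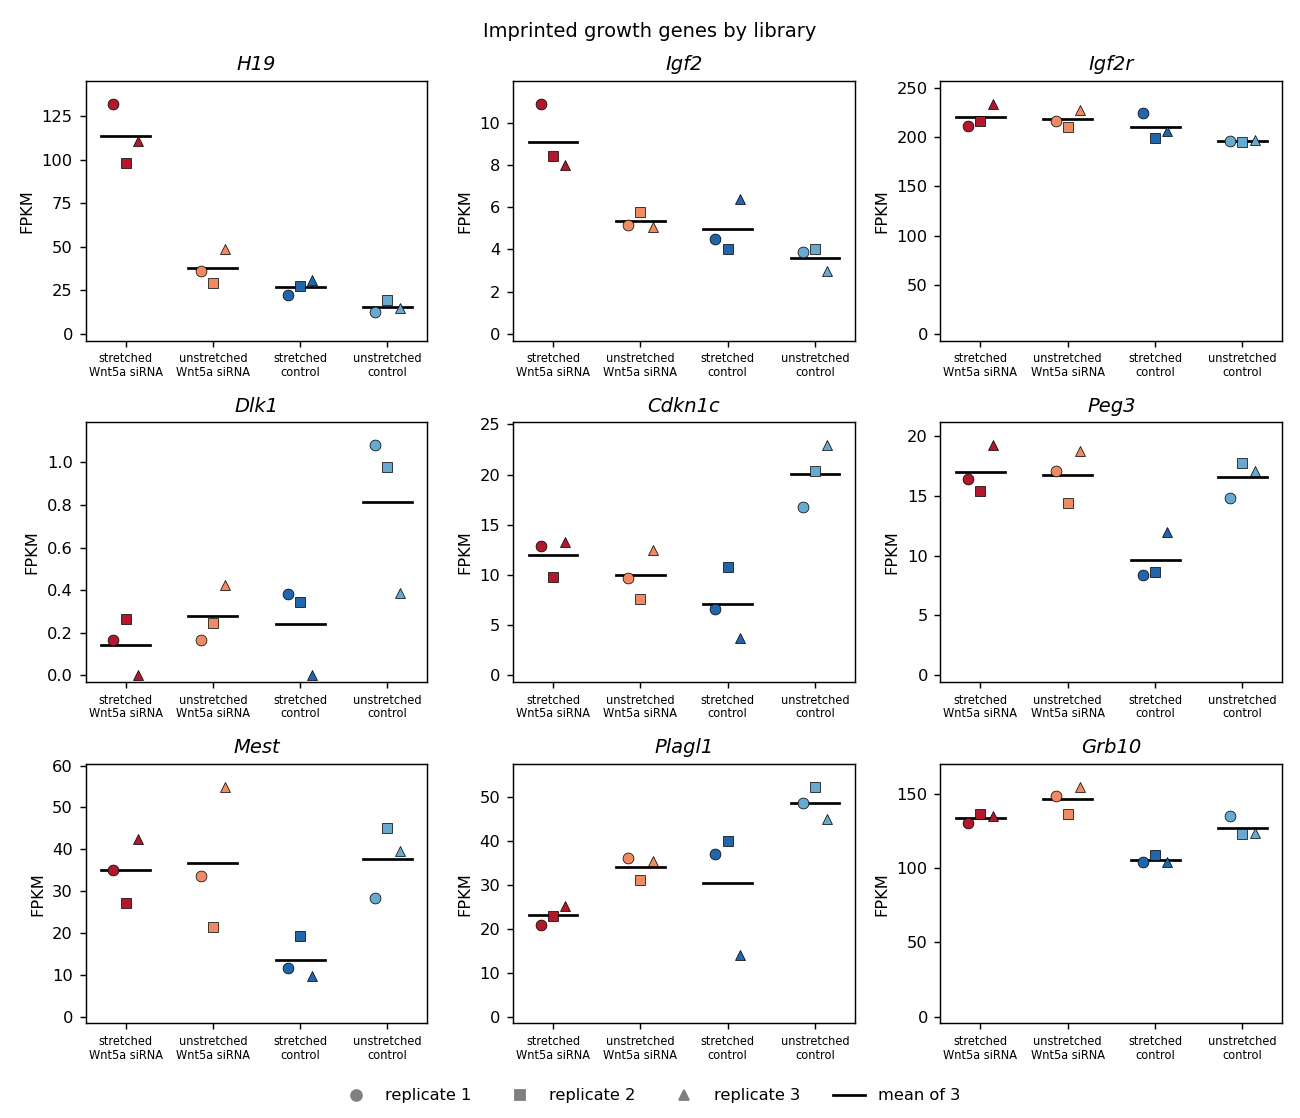
FPKM (y axis, linear, from 0) of the 9 imprinted growth genes in each of the 12 libraries, by group along the x axis; symbols mark replicate numbers and bars the mean of 3. H19 was highest in the 3 stretched Wnt5a siRNA libraries (98.3 to 132 FPKM), and Peg3 and Mest were lowest in stretched control cells.

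With stretch, Wnt5a siRNA cells had more H19, Igf2, Grb10, Cdkn1c, Peg3 and Mest than control siRNA cells, and none of the 8 tested genes was called lower. These 6 calls of 8 stand against 27.3% of all tested genes called in that comparison (13.2% higher and 14.2% lower). Without stretch, Wnt5a siRNA cells had more H19, Igf2 and Grb10 and less Cdkn1c, which is 4 calls of 8 against a background of 28.5% (14.6% higher and 13.9% lower). Stretch with control siRNA was accompanied by more H19 and less Cdkn1c, Peg3, Mest, Plagl1 and Grb10, which is 6 calls of 8 against a background of 54.3% (27.5% higher and 26.8% lower). Stretch with Wnt5a siRNA raised only H19 and Igf2 among the 8, against a background of 16.0% (8.44% higher and 7.59% lower). The difference between the 2 stretch changes was called for H19, Cdkn1c, Peg3 and Mest, each more positive with Wnt5a siRNA, against a background of 23.8% (11.7% positive and 12.1% negative). The median log2 change of the 8 genes was 0.77 for Wnt5a siRNA with stretch and -0.50 for stretch with control siRNA, against medians over all tested genes of 0.00 and 0.01. Both of these comparisons use the 3 stretched control libraries, so their opposite signs are not independent of each other. With TPM scaling the counts were 6 higher and 0 lower for Wnt5a siRNA with stretch, 2 and 1 for the siRNA without stretch, 2 and 1 for stretch of Wnt5a siRNA cells and 1 and 5 for stretch of control cells. Without stretched control replicate 3 they were 5 and 1, 3 and 2, 2 and 1, and 1 and 5.

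**Figure D2:**
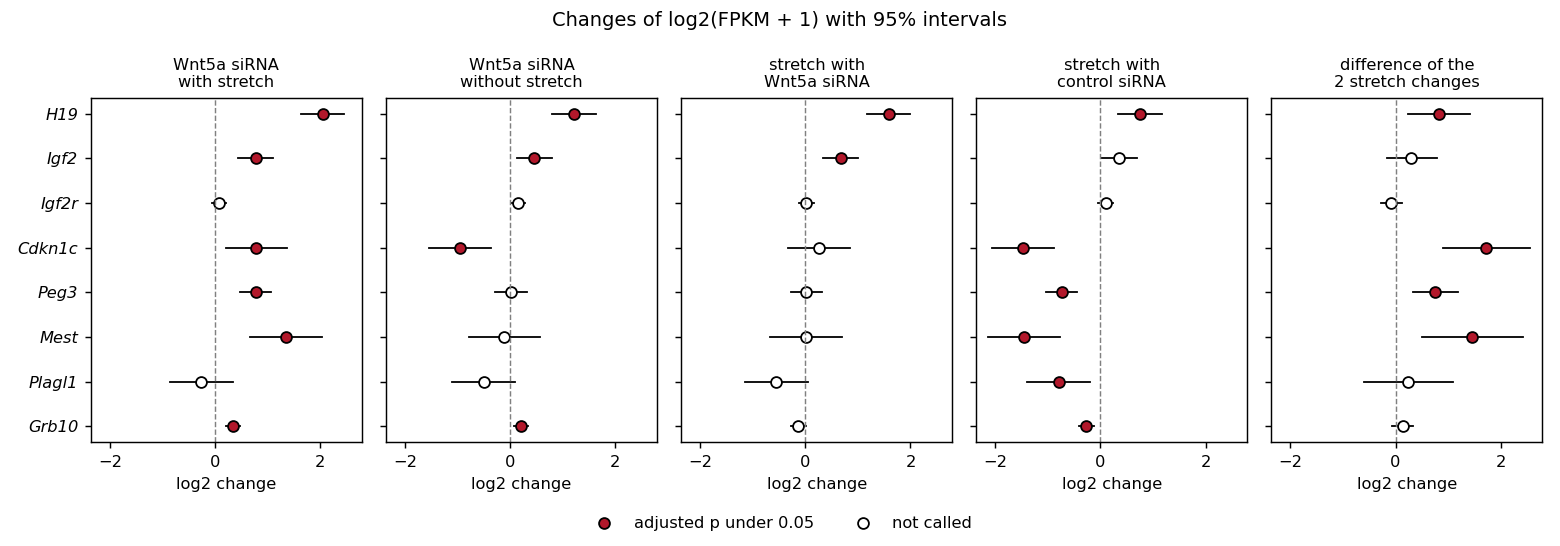
Change of log2(FPKM + 1) with its 95% interval (x axis) for the 8 tested genes in 5 comparisons; filled points have a limma adjusted p under 0.05. H19 lies to the right of 0 in every panel, and Cdkn1c, Peg3 and Mest lie to the left of 0 only in the panels of stretch with control siRNA and, for Cdkn1c and for Mest, of Wnt5a siRNA without stretch.

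H19 encodes an abundant fetal long noncoding RNA that is the precursor of miR-675. It was at 132, 98.3 and 111 FPKM in stretched Wnt5a siRNA cells, 35.9, 28.9 and 48.4 in unstretched Wnt5a siRNA cells, 22.1, 27.7 and 30.8 in stretched control cells and 12.5, 19.3 and 15.0 in unstretched control cells. The 3 stretched Wnt5a siRNA libraries lay above all others, unstretched Wnt5a siRNA and stretched control cells overlapped, and unstretched control cells lay below all others. In means this put H19 above 92.0% of the tested genes in stretched Wnt5a siRNA cells, 75.5% in unstretched Wnt5a siRNA cells, 65.9% in stretched control cells and 48.9% in unstretched control cells. With stretch it averaged 114 ± 16.9 FPKM in Wnt5a siRNA cells and 26.8 ± 4.40 in control cells (SD, n = 3 each), 4.24-fold higher (log2 change 2.05 ± 0.19, limma adjusted p = 2.2e-04). Without stretch it averaged 37.7 ± 9.89 FPKM in Wnt5a siRNA cells and 15.6 ± 3.41 in control cells, 2.42-fold higher (log2 change 1.21 ± 0.19, limma adjusted p = 0.00131). Stretch raised it in both siRNA arms, by 1.59 ± 0.19 with Wnt5a siRNA (limma adjusted p = 4.1e-04) and by 0.75 ± 0.19 with control siRNA (limma adjusted p = 0.00528) on the log2 scale. These 4 calls held in all 20 alternatives tried. The difference between the 2 stretch changes was 0.83 ± 0.27 (limma adjusted p = 0.0428) and was lost in 11 of 19 alternatives, with adjusted p between 0.0138 and 0.104 over its alternatives. It was not called without stretched Wnt5a siRNA replicate 1 (0.72, adjusted p = 0.0987) or 3 (0.0802), unstretched Wnt5a siRNA replicate 1 (0.0857) or 2 (0.102), stretched control replicate 1 (0.1) or 2 (0.0544), or unstretched control replicate 2 (0.104) or 3 (0.0771), nor with a pseudocount of 0.1 (0.0517), no filter (0.0721) or no trend (0.0563).

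Mir675, inside H19, was listed at 0 in all 12 libraries, as was Mir483, inside Igf2. Both are small RNA genes, which poly(A) libraries do not measure. Their mature sequences are shown because they are the regulatory products of the 2 neighbouring genes whose levels moved together here (RefSeq, GRCr8, minus strand, seed in capitals). miR-675-5p lies at chr1:207161800-207161821, miR-675-3p at chr1:207161766-207161786, miR-483-5p at chr1:207247903-207247924 and miR-483-3p at chr1:207247865-207247886.
miR-675-5p: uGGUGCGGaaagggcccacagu
miR-675-3p: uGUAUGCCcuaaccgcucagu
miR-483-5p: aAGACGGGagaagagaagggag
miR-483-3p: cACUCCUCcccucccgucuugu
The 4 seeds differ from one another, so no seed is shared between the H19 and the Igf2 product.

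Igf2 encodes insulin-like growth factor 2, a secreted fetal mitogen that signals through Igf1r and Insr. It was far less abundant than H19, at 10.9, 8.43 and 7.99 FPKM in stretched Wnt5a siRNA cells, 5.16, 5.78 and 5.05 in unstretched Wnt5a siRNA cells, 4.51, 4.02 and 6.39 in stretched control cells and 3.86, 4.0 and 2.96 in unstretched control cells. The order of the groups was that of H19: stretched Wnt5a siRNA cells lay above all others, the next 2 groups overlapped, and unstretched control cells lay just below the lowest stretched control library. With stretch Igf2 averaged 9.10 ± 1.56 FPKM in Wnt5a siRNA cells and 4.97 ± 1.25 in control cells (SD, n = 3 each), 1.83-fold higher (log2 change 0.77 ± 0.16, limma adjusted p = 0.00603). Stretch raised it with Wnt5a siRNA (0.67 ± 0.16, limma adjusted p = 0.0132), although not without stretched Wnt5a siRNA replicate 1 (0.54, adjusted p = 0.0694; range over alternatives 0.00276 to 0.0694). With control siRNA the stretch change was 0.36 ± 0.16 and was not called (limma adjusted p = 0.0666), though it was called without stretched control replicate 2 (0.48, adjusted p = 0.0286) and with quantile normalization (0.52, adjusted p = 0.00959). Leaving out 1 library gave 0.20 to 0.48, and the limma adjusted p over the alternatives was 0.00959 to 0.354. Replicate 3 had the highest value of the stretched control group, 6.39 FPKM. The higher level with Wnt5a siRNA without stretch (0.46 ± 0.16, limma adjusted p = 0.0421) was lost in 9 of 20 alternatives, with adjusted p between 0.0124 and 0.164. It was lost without any 1 of the 6 unstretched libraries (0.36 to 0.53, adjusted p 0.0587 to 0.164) and without stretched Wnt5a siRNA replicate 2 (0.0538). The 2 stretch changes of Igf2 differed by 0.30 ± 0.22, which was not called (limma adjusted p = 0.335).

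The ratio of H19 to Igf2 FPKM was 12.1, 11.7 and 13.9 in stretched Wnt5a siRNA cells, 6.96, 5.0 and 9.58 in unstretched Wnt5a siRNA cells, 4.89, 6.90 and 4.81 in stretched control cells and 3.24, 4.81 and 5.05 in unstretched control cells. It was highest in the 3 stretched Wnt5a siRNA libraries, and the other 3 groups overlapped. Both transcripts were therefore higher there, H19 by more. Over the 12 libraries, which share the 4 groups, log2 levels of H19 and Igf2 had a Pearson correlation of 0.92.

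Igf2 has 2 start sites in the RefSeq promoter table, which covers 250 bases before to 50 after each start and holds 8 promoters of 7 of the 9 genes. The second is shown because its window holds the core letters recognised by TEAD factors, GGAATG, which are the DNA-binding partners of the stretch-responsive coactivator YAP. The match, in capitals, begins 192 bases before the start, on chr1:207250426-207250725 of GRCr8, minus strand.
Igf2 start site 2: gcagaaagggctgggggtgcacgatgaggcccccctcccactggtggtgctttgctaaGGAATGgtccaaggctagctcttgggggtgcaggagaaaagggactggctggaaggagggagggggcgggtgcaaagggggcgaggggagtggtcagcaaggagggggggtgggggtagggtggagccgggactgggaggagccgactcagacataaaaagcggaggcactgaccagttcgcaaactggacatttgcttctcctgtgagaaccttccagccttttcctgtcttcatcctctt
GGAATG, searched on both strands as GGAATG or CATTCC, was present in 4749 of 33469 promoter windows of this length (14.2%). Among these genes it was also in the windows of Peg3 and Plagl1 and not in those of Igf2 start site 1, Igf2r, Dlk1, Mest or Grb10. A match describes the letters and is not evidence of binding.

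Dlk1, a transmembrane protein related to Notch ligands that keeps progenitor cells from differentiating, was close to absent. It was at 0.163, 0.263 and a listed 0 FPKM in stretched Wnt5a siRNA cells, 0.164, 0.247 and 0.425 in unstretched Wnt5a siRNA cells, 0.382, 0.342 and a listed 0 in stretched control cells and 1.08, 0.980 and 0.388 in unstretched control cells. The 2 highest values were in unstretched control cells, whose lowest library lay within the range of unstretched Wnt5a siRNA cells. Dlk1 was not tested, and counting error at such levels is unknown.

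Igf2r, the cation-independent mannose 6-phosphate receptor that takes up and degrades Igf2, was the most abundant of the 9 genes and the most even. It was at 212, 217 and 234 FPKM in stretched Wnt5a siRNA cells, 217, 210.1 and 228 in unstretched Wnt5a siRNA cells, 225, 199.8 and 206 in stretched control cells and 196, 195 and 197 in unstretched control cells. The first 3 groups overlapped, and unstretched control cells lay below all 9 other libraries. No comparison of Igf2r was called: the siRNA changes were 0.07 ± 0.06 in stretched and 0.15 ± 0.06 in unstretched cells, with 0.02 ± 0.06 for stretch with Wnt5a siRNA and 0.10 ± 0.06 for stretch with control siRNA (limma adjusted p = 0.400, 0.0928, 0.874 and 0.214). With quantile normalization both Wnt5a siRNA changes were called, at 0.23 with stretch (adjusted p = 0.0397) and 0.23 without (adjusted p = 0.0296), and the unstretched one was also called in a fit of only those 2 groups (adjusted p = 0.0416).

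Grb10, an adaptor that binds the insulin and IGF1 receptors and dampens their signal, was at 130.3, 137 and 135 FPKM in stretched Wnt5a siRNA cells, 149, 137 and 155 in unstretched Wnt5a siRNA cells, 104, 109 and 104 in stretched control cells and 135, 123 and 124 in unstretched control cells. The 3 stretched control libraries lay below all others, and the spread within groups was small. With stretch it averaged 134 ± 3.58 FPKM in Wnt5a siRNA cells and 106 ± 2.79 in control cells (SD, n = 3 each), 127% of control (log2 change 0.34 ± 0.06, limma adjusted p = 0.00410). In control siRNA cells stretch lowered it to 83.0% of unstretched control cells (-0.27 ± 0.06, limma adjusted p = 0.00339). The call for Wnt5a siRNA without stretch (0.20 ± 0.06, limma adjusted p = 0.0293) was lost without unstretched Wnt5a siRNA replicate 1 (0.0940) or 3 (0.105) or unstretched control replicate 2 (0.104) or 3 (0.103), and with TPM scaling (0.0521) or no trend (0.0504), over a range of adjusted p of 0.0170 to 0.105. In Wnt5a siRNA cells stretch gave -0.13 ± 0.06 (limma adjusted p = 0.187), called with TPM scaling (-0.25, adjusted p = 0.0305).

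Cdkn1c encodes p57, a Cip/Kip inhibitor of cyclin-dependent kinases that takes cells out of the cycle. It was at 12.9, 9.82 and 13.3 FPKM in stretched Wnt5a siRNA cells, 9.70, 7.63 and 12.5 in unstretched Wnt5a siRNA cells, 6.60, 10.8 and 3.73 in stretched control cells and 16.8, 20.4 and 22.9 in unstretched control cells. Unstretched control cells were above every other library, and the other 3 groups overlapped. Stretch of control cells lowered it to 7.05 ± 3.57 FPKM, against 20.0 ± 3.09 in unstretched control cells (SD, n = 3 each), which is 35.2% (log2 change -1.47 ± 0.27, limma adjusted p = 6.2e-04). Wnt5a siRNA without stretch lowered it to 9.96 ± 2.47 FPKM, 49.7% of unstretched control cells (-0.95 ± 0.27, limma adjusted p = 0.0202). That call was lost without unstretched Wnt5a siRNA replicate 1 (0.0582) or 2 (0.0827) or unstretched control replicate 2 (0.0581) or 3 (0.0772), over a range of adjusted p of 0.00251 to 0.0827. With Wnt5a siRNA the stretch change was 0.26 ± 0.27 (limma adjusted p = 0.555), and the 2 stretch changes differed by 1.73 ± 0.38 (limma adjusted p = 0.00826, called in all 19 alternatives). The higher level with Wnt5a siRNA under stretch (0.78 ± 0.27, limma adjusted p = 0.0485) was at the threshold. It was lost in 14 of 20 alternatives (adjusted p 0.0128 to 0.145), among them all that left out 1 library except unstretched Wnt5a siRNA replicates 2 and 3 and stretched control replicate 2. Without stretched control replicate 3, the lowest library, the change was 0.45 (adjusted p = 0.113).

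Plagl1, also called Zac1, is a zinc finger factor that arrests cell growth and regulates other imprinted genes in mouse. It was at 20.9, 23.0 and 25.2 FPKM in stretched Wnt5a siRNA cells, 36.0, 31.0 and 35.4 in unstretched Wnt5a siRNA cells, 37.1, 39.9 and 14.1 in stretched control cells and 48.7, 52.3 and 45.0 in unstretched control cells. Unstretched control cells were above every other library, and stretched control replicate 3 was the lowest of all 12. In control siRNA cells stretch lowered it to 30.4 ± 14.2 FPKM, against 48.7 ± 3.65 in unstretched control cells (SD, n = 3 each; log2 change -0.79 ± 0.28, limma adjusted p = 0.0285), a call lost without unstretched control replicate 1 (0.0618) or 2 (0.0785), in a fit of only those 2 groups (0.0889) and with no filter (0.0509). Leaving out stretched control replicate 3 made that change -0.33, which was still called. The other changes were -0.26 ± 0.28 for Wnt5a siRNA with stretch, -0.50 ± 0.28 without stretch and -0.55 ± 0.28 for stretch of Wnt5a siRNA cells (limma adjusted p = 0.508, 0.198 and 0.203). With that library left out all 3 were called lower, at -0.72 (adjusted p = 1.4e-04), -0.50 (7.6e-04) and -0.55 (7.8e-04). The 2 comparisons that do not contain this library were also called in fits of only the groups compared, at -0.50 without stretch (adjusted p = 0.00189) and -0.55 for stretch of Wnt5a siRNA cells (0.00326).

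Peg3 encodes a large zinc finger protein that promotes fetal growth. It was at 16.4, 15.4 and 19.2 FPKM in stretched Wnt5a siRNA cells, 17.1, 14.4 and 18.7 in unstretched Wnt5a siRNA cells, 8.35, 8.61 and 12 in stretched control cells and 14.8, 17.7 and 17.1 in unstretched control cells. The 3 stretched control libraries lay below all others, and the other 3 groups overlapped. Stretch of control cells lowered it to 9.64 ± 2.01 FPKM, against 16.5 ± 1.54 in unstretched control cells (SD, n = 3 each), which is 58.3% (log2 change -0.73 ± 0.14, limma adjusted p = 7.3e-04). With stretch Wnt5a siRNA cells averaged 17.0 ± 2.0 FPKM, 1.76-fold the stretched control level (0.77 ± 0.14, limma adjusted p = 0.00367). The 2 stretch changes differed by 0.76 ± 0.19 (limma adjusted p = 0.0166), and all 3 calls held in every alternative. Without stretch the Wnt5a siRNA change was 0.01 ± 0.14, with a 95% interval of -0.29 to 0.31, and it was not called.

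The Peg3 promoter is shown because it holds both letters searched: GGAATG, beginning 96 bases before the start, and the palindrome GGGGCCCC of the type bound by Plagl1, beginning 213 bases before it. It lies on chr1:76130744-76131043 of GRCr8, plus strand, with the matches in capitals.
Peg3: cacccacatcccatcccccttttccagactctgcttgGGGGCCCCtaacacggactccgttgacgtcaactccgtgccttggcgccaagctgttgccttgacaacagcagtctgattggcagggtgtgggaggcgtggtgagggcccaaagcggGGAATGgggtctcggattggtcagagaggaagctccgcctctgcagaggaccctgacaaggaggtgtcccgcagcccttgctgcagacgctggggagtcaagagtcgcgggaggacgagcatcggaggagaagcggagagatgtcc
GGGGCCCC was present in 287 of the 33469 windows (0.858%), and of these genes only the Peg3 window held it. Whether either factor acts here was not tested.

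Mest, a hydrolase-like protein of the endoplasmic reticulum expressed in fetal mesoderm, moved as Peg3 did but with more scatter. It was at 35.1, 27.2 and 42.5 FPKM in stretched Wnt5a siRNA cells, 33.7, 21.4 and 54.9 in unstretched Wnt5a siRNA cells, 11.5, 19.2 and 9.63 in stretched control cells and 28.3, 45.0 and 39.6 in unstretched control cells. The 3 stretched control libraries were again below all others. In control siRNA cells stretch lowered it to 13.4 ± 5.06 FPKM, against 37.6 ± 8.54 in unstretched control cells (SD, n = 3 each), which is 35.7% (log2 change -1.45 ± 0.31, limma adjusted p = 0.00185). With stretch Wnt5a siRNA cells averaged 34.9 ± 7.64 FPKM, 260.2% of stretched control cells (1.35 ± 0.31, limma adjusted p = 0.0100). Without stretch the Wnt5a siRNA change was -0.11 ± 0.31 (limma adjusted p = 0.823). The 2 stretch changes differed by 1.46 ± 0.44 (limma adjusted p = 0.0319; 0.00839 to 0.0820 over alternatives), a call lost without stretched Wnt5a siRNA replicate 1 (0.0615) or 3 (0.0820), unstretched Wnt5a siRNA replicate 1 (0.0651) or 2 (0.0718), stretched control replicate 1 (0.0689), or unstretched control replicate 2 (0.0774) or 3 (0.0720). Across the 12 libraries the log2 levels of Mest had a Pearson correlation of 0.84 with Peg3, 0.81 with Cdkn1c, 0.77 with Grb10 and 0.24 with H19.

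Counts of genes whose libraries did not overlap between groups were 5 of 8 for Wnt5a siRNA with stretch (37.6% of all tested genes), 6 of 8 for Wnt5a siRNA without stretch (49.4%), 3 of 8 for stretch with Wnt5a siRNA (40.7%) and 8 of 8 for stretch with control siRNA (58.0%). The last is H19, Igf2 and Igf2r above and the other 5 below unstretched control cells, with Igf2 and Igf2r not called by limma.

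Along chromosome 1 the genes from H19 to Osbpl5, the region of the H19/Igf2 and Kcnq1/Cdkn1c imprinted domains in rodents, did not move as a block. By the RefSeq order 18 listed genes lie in this stretch and 12 were tested. For Wnt5a siRNA with stretch 4 were higher (H19, Igf2, Kcnq1 and Cdkn1c) and 2 lower (Tssc4 at -0.33 ± 0.10, adjusted p = 0.0374, and Cars at -0.23 ± 0.07, adjusted p = 0.0333, by limma). The Tssc4 and Cars calls were lost in 12 and 7 of 20 alternatives (adjusted p up to 0.143 and 0.233). For stretch with control siRNA 4 were higher (H19, Tssc4, Cars and Tnfrsf26) and 3 lower (Kcnq1, Cdkn1c and Slc22a18). Kcnq1, a potassium channel gene and the tested neighbour of Cdkn1c, was at 13.8, 15.4 and 15.2 FPKM in stretched Wnt5a siRNA cells, 20.5, 20.4 and 20.9 in unstretched Wnt5a siRNA cells, 6.80, 8.89 and 11.9 in stretched control cells and 19.1, 21.0 and 18.6 in unstretched control cells. Unlike those of Cdkn1c, its 2 unstretched groups overlapped. For Wnt5a siRNA without stretch 3 of the 12 were higher and 1 lower, and for stretch with Wnt5a siRNA 3 were higher and 1 lower. Mrpl23, the tested gene next to H19 outside the region, was called in none of the 5 comparisons. Tnnt3, the next tested gene beyond Mrpl23, was low. It was at 2.24 to 3.53 FPKM in stretched and 1.71 to 3.15 in unstretched Wnt5a siRNA cells. In control cells it was at 0.462 to 0.908 with stretch and 0.794 to 1.15 without. Both Wnt5a siRNA groups thus lay above both control groups.

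**Figure D3:**
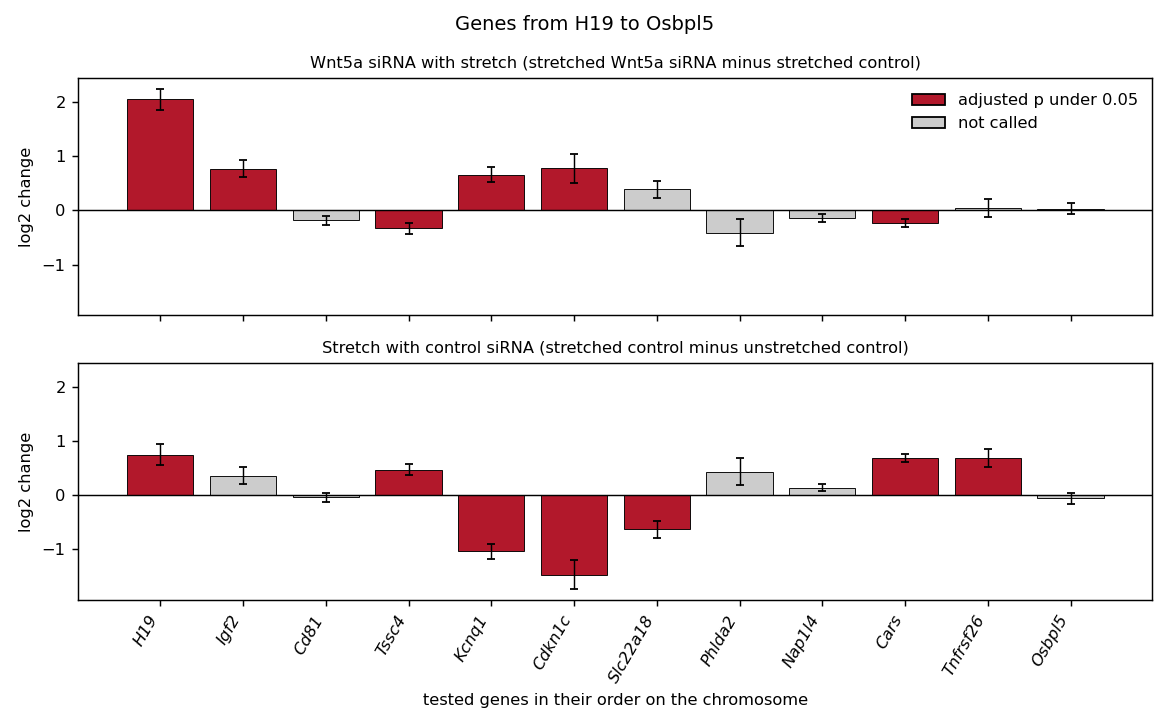
Log2 change with standard error (y axis) of the 12 tested genes from H19 to Osbpl5 in chromosome order (x axis, not to distance), for Wnt5a siRNA with stretch (top) and stretch with control siRNA (bottom); red bars have a limma adjusted p under 0.05. Kcnq1 and Cdkn1c are positive in the top panel and negative in the bottom panel, while H19 is positive in both.

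Some tested neighbours of the other genes were read in the same way, and the rest are not given here. Apeg3, annotated antisense to Peg3, was at 16.9, 15.2 and 20.3 FPKM in stretched Wnt5a siRNA cells, 17.4, 15.0 and 18.7 in unstretched Wnt5a siRNA cells, 9.33, 7.58 and 12.1 in stretched control cells and 16.7, 15.9 and 15.0 in unstretched control cells. Like Peg3 it was lowest in stretched control cells, and it changed by -0.68 ± 0.14 for stretch with control siRNA (limma adjusted p = 0.00167) and 0.80 ± 0.14 for Wnt5a siRNA with stretch (limma adjusted p = 0.00379). The strand setting of the counting is not given in the sources used here, so reads of the 2 genes cannot be told apart. Usp29, on the other side of Peg3, was lower by stretch with control siRNA (-0.35 ± 0.12, limma adjusted p = 0.0237, lost in 6 of 19 alternatives, adjusted p up to 0.240). Copg2, next to Mest and overlapping it tail to tail in mouse, was at 23.6, 21.8 and 24.0 FPKM in stretched Wnt5a siRNA cells, 27.1, 23.6 and 27.3 in unstretched Wnt5a siRNA cells, 15.1, 18.3 and 17.2 in stretched control cells and 32.4, 35.3 and 35.9 in unstretched control cells. It shared with Mest the low stretched control group and, unlike Mest, was also lower with Wnt5a siRNA without stretch (-0.40 ± 0.09, limma adjusted p = 0.00570). As for Peg3 and Apeg3, reads of Mest and Copg2 cannot be told apart where the 2 genes overlap, so they may not be separate measurements. Ddc, the aromatic amino acid decarboxylase gene next to Grb10, was at 23.6, 26.8 and 28.7 FPKM in stretched Wnt5a siRNA cells, 31.4, 27.0 and 29.0 in unstretched Wnt5a siRNA cells, 32.4, 40.5 and 20.8 in stretched control cells and 65.0, 62.0 and 61.5 in unstretched control cells. It was high in unstretched control cells and lower in the other 3 groups, which is not the pattern of Grb10. Map3k4, next to Igf2r, was at 7.47 to 8.81 FPKM in stretched and 9.18 to 10.7 in unstretched Wnt5a siRNA cells. In control cells it was at 5.54 to 6.56 with stretch and 10.7 to 11.7 without. It was thus lowest in stretched control cells, unlike Igf2r. Mrpl18, on the other side of Igf2r, was at 54.8 to 59.5, 52.8 to 58.5, 56.0 to 64.4 and 60.8 to 68.5 FPKM in the same order of groups.

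Other genes reported to be imprinted in mouse, some in certain tissues only, were read beside the 9. The list held 63 genes, of which 48 were in the files and 34 tested. Whether they are imprinted in these cells was not tested. For Wnt5a siRNA with stretch 4 of 34 were higher and 1 lower, with a median log2 change of 0.03, against 27.3% of all tested genes called. The same list gave 8 higher and 6 lower without stretched control replicate 3. With all libraries Copg2 (0.43 ± 0.09, adjusted p = 0.00555), Kcnq1 (0.66 ± 0.14, 0.00697), Trappc9 (0.55 ± 0.15, 0.0176) and Ndn (0.25 ± 0.07, 0.0259) were the 4 higher by limma. Ndn encodes necdin, a growth suppressor of neurons. The calls of Trappc9 and Ndn were lost in 4 and 5 of 20 alternatives (adjusted p up to 0.0815 and 0.0793). For stretch with control siRNA 54.3% of all tested genes were called. Of the list 4 were higher and 12 lower, with a median of -0.12, and with TPM scaling 3 and 20. The 4 smallest adjusted p were those of Copg2 (-0.99 ± 0.09), Snurf (-0.81 ± 0.07), Asb4 (-1.46 ± 0.17) and Kcnq1 (-1.04 ± 0.14), all lower (limma adjusted p = 3.9e-06, 4.1e-06, 2.0e-05 and 6.4e-05). For Wnt5a siRNA without stretch 2 were higher and 9 lower, against 28.5% of all tested genes called. These were led by Dcn (-1.09 ± 0.14), Ddc (-1.09 ± 0.17), Asb4 (-0.86 ± 0.17) and Copg2 (limma adjusted p = 5.1e-04, 0.00135, 0.00323 and 0.00570). For stretch with Wnt5a siRNA 16.0% of all tested genes were called. Of the list 2 were higher (Dcn, 1.96 ± 0.14, and Impact, 0.33 ± 0.09, limma adjusted p = 2.2e-05 and 0.0213). Another 2 were lower (Snurf, -0.52 ± 0.07, and Kcnq1, -0.45 ± 0.14, limma adjusted p = 8.1e-04 and 0.0431). Impact was lost in 6 and Kcnq1 in 12 of 20 alternatives (adjusted p up to 0.0815 and 0.153). The difference between the 2 stretch changes was called for 8 of 34, near the share of 23.8% of all tested genes. Of these 8, 7 were positive, led by Dcn (1.34 ± 0.19), Copg2 (0.83 ± 0.12), Asb4 (1.24 ± 0.23) and Trappc9 (0.87 ± 0.21, limma adjusted p = 0.00170, 0.00173, 0.00447 and 0.0121). Dcn encodes decorin and is also among the fibroblast markers used below.

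Genes of the IGF axis, through which Igf2 acts, were also read, 14 of 20 listed genes being tested. Counts of this and the next lists stand against the shares of all tested genes called, given above for each comparison. For Wnt5a siRNA with stretch 6 were higher and 2 lower, led by Igfbp5 (20.1 FPKM in Wnt5a siRNA cells against 6.99 in control cells, 1.44 ± 0.25), Pappa (6.60 against 2.09, 1.43 ± 0.30), Irs2 (14.9 against 27.9, -0.81 ± 0.18) and Igfbp3 (16.8 against 8.43, 0.93 ± 0.21; limma adjusted p = 0.00319, 0.00640, 0.00765 and 0.00819). Igfbp3 and Igfbp5 encode binding proteins that hold IGFs outside the cell, Pappa a protease that cuts such proteins, and Irs2 a docking protein below the insulin and IGF1 receptors. For Wnt5a siRNA without stretch 0 of 14 were called by limma (1 at an unadjusted p under 0.05, 1 called with quantile normalization, and 3 called, 1 higher and 2 lower, without stretched control replicate 3), and the 2 most abundant, Igfbp7 and Htra1, gave 0.09 ± 0.07 and 0.06 ± 0.11. In Wnt5a siRNA cells stretch gave 5 higher and 2 lower, led by Igf1, the other IGF ligand, at 41.3 FPKM in stretched against 12 in unstretched cells (1.72 ± 0.20), Igfbp6 (0.62 ± 0.09), Igfbp3 (1.33 ± 0.21) and Igfbp4 (0.98 ± 0.20; limma adjusted p = 3.2e-04, 9.9e-04, 0.00156 and 0.00656). In control siRNA cells stretch gave 3 higher and 3 lower of 14, against 54.3% of all tested genes called, and with TPM scaling 1 and 5. Its 4 smallest adjusted p were those of Igfbp7 (0.46 ± 0.07), Irs1 (-0.52 ± 0.10), Igfbp6 (0.44 ± 0.09) and Stc2 (-0.69 ± 0.19; limma adjusted p = 2.6e-04, 7.4e-04, 0.0010 and 0.00896), with Igfbp6 lost under TPM scaling (adjusted p = 0.0527). The difference between the 2 stretch changes was called for Igfbp3 (1.37 ± 0.29), Igf1 (1.14 ± 0.28), Igfbp5 (1.40 ± 0.35) and, downward, for Igf1r, the receptor for Igf1 and Igf2 (-0.58 ± 0.17; limma adjusted p = 0.00707, 0.0133, 0.0147 and 0.0252). The Igf1r difference was lost in 7 of 19 alternatives, with adjusted p up to 0.0681.

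**Figure D4:**
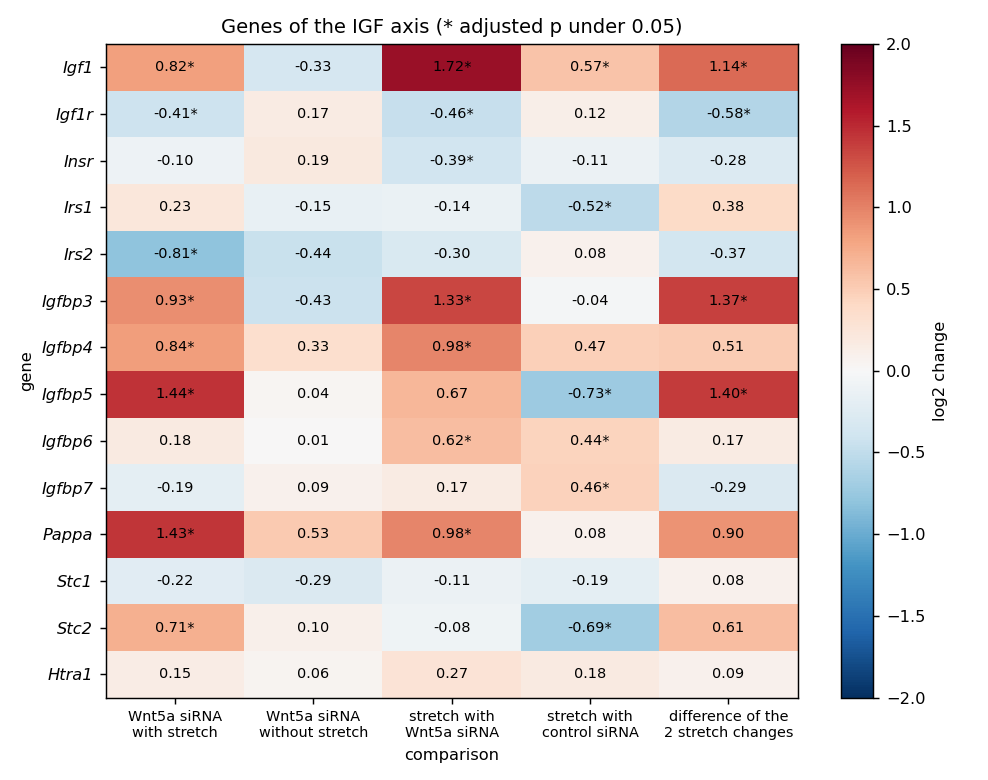
Log2 change (colour scale, and number in each cell) of the 14 tested IGF axis genes (rows) in 5 comparisons (columns); an asterisk marks a limma adjusted p under 0.05. The column of Wnt5a siRNA without stretch holds no asterisk, while Igf1 is at 1.72 in that of stretch with Wnt5a siRNA.

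Relatives of the 9 genes by sequence were read beside them, 7 of 8 listed being tested. Stretched against unstretched control cells had 0 higher and 5 lower: Grb14 (-0.88 ± 0.08), Plag1 (-0.58 ± 0.12), Cdkn1b (-0.41 ± 0.11) and Plagl2 (-0.27 ± 0.10) had the smallest adjusted p (limma, 4.1e-06, 0.00115, 0.00609 and 0.0384), with Plagl2 lost in 10 of 20 alternatives (adjusted p up to 0.221). Wnt5a siRNA with stretch gave Abhd14b higher (0.41 ± 0.12, limma adjusted p = 0.0275, lost in 5 of 20 alternatives, up to 0.115) and Cdkn1a lower (-1.0 ± 0.23, limma adjusted p = 0.0100, lost in the fit of only the groups compared, 0.0521). Cdkn1a encodes p21, the p53-induced relative of p57, and was at 52.6, 57.7 and 59.2 FPKM in stretched Wnt5a siRNA cells, 51.8, 46.6 and 48.4 in unstretched Wnt5a siRNA cells, 133, 163 and 67.9 in stretched control cells and 106, 109 and 134 in unstretched control cells. All 6 Wnt5a siRNA libraries lay below all 6 control libraries, which is not the pattern of Cdkn1c. Wnt5a siRNA without stretch lowered Grb14 (-0.49 ± 0.08) and Cdkn1a (-1.23 ± 0.23; limma adjusted p = 0.00122 and 0.00291), and stretch with Wnt5a siRNA called 0 of 7 by limma (1 at an unadjusted p under 0.05, and 1 called with TPM scaling), Cdkn1a being at 0.20 ± 0.23 and Grb14 at -0.19 ± 0.08. The stretch changes differed for Grb14 (0.69 ± 0.11), Cdkn1b (0.53 ± 0.15) and Plag1 (0.54 ± 0.16; limma adjusted p = 0.00223, 0.0248 and 0.0319), the last 2 lost in 3 and 7 of 19 alternatives (adjusted p up to 0.0673 and 0.0847).

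Genes that set or keep the methylation of imprinted regions were also read, 7 of 12 being tested. Stretch with control siRNA gave 2 lower, the de novo methyltransferases Dnmt3a (-0.71 ± 0.09) and Dnmt3b (-0.94 ± 0.13), and 2 higher, Trim28 (0.37 ± 0.07) and Zfp57 (0.34 ± 0.09), a corepressor and the zinc finger protein that recruits it (limma adjusted p = 3.0e-05, 9.9e-05, 0.00115 and 0.00664). With TPM scaling the Trim28 and Zfp57 calls were lost (adjusted p = 0.0865 and 0.230). Wnt5a siRNA with stretch gave Dnmt3a higher (0.35 ± 0.09) and Trim28 lower (-0.28 ± 0.07; limma adjusted p = 0.0124 and 0.0164), lost in 3 and 6 of 20 alternatives (up to 0.0571 and 0.134). Without stretch Wnt5a siRNA gave 3 higher, Uhrf1 (0.72 ± 0.13), Dnmt1 (0.43 ± 0.10) and Zfp57 (0.34 ± 0.09; limma adjusted p = 0.00230, 0.00771 and 0.0141), the last lost in 3 of 20 alternatives (up to 0.0638). Stretch with Wnt5a siRNA gave Uhrf1 (-0.52 ± 0.13) and Dnmt3a (-0.28 ± 0.09) lower (limma adjusted p = 0.0170 and 0.0472), lost in 3 and 13 of 20 alternatives (up to 0.0708 and 0.173). The difference between the stretch changes gave 1 positive, Dnmt3a (0.44 ± 0.12), and 4 negative, led by Zfp57 (-0.56 ± 0.13), Uhrf1 (-0.81 ± 0.18) and Trim28 (-0.41 ± 0.10; limma adjusted p = 0.0228, 0.00920, 0.00922 and 0.0148), with Dnmt3a lost in 5 of 19 alternatives (up to 0.0632). DNA methylation was not measured in these libraries.

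The let-7 and Lin28 circuit, in which H19 is reported to bind let-7 in mouse muscle cells and Igf2bp proteins bind Igf2 RNA, had 6 of 12 genes tested. In control siRNA cells stretch gave Hmga2 (1.45 ± 0.19), Hmga1 (0.97 ± 0.15) and Igf2bp2 (0.25 ± 0.08) higher and Arid3b (-0.39 ± 0.12) lower (limma adjusted p = 6.3e-05, 1.5e-04, 0.0191 and 0.0145), with Igf2bp2 lost in 3 of 20 alternatives (up to 0.730) and Arid3b in 1 of 19 (0.190). Hmga2, a chromatin protein of growing fetal cells and a let-7 target, was lower with Wnt5a siRNA under stretch (-0.74 ± 0.19, limma adjusted p = 0.0170), as was Igf2bp1 (-0.40 ± 0.10, limma adjusted p = 0.0154). Each was lost in 3 of 20 alternatives (up to 0.0815 and 0.0710). Without stretch Wnt5a siRNA gave Hmga2 (0.63 ± 0.19) and Hmga1 (0.42 ± 0.15) higher and Arid3a (-0.43 ± 0.15) lower (limma adjusted p = 0.0302, 0.0486 and 0.0450), Hmga2 and Hmga1 being lost in 6 and 12 of 20 and Arid3a in 10 of 19 alternatives (up to 0.131, 0.156 and 0.158). In Wnt5a siRNA cells stretch gave Igf2bp1 lower (-0.44 ± 0.10, limma adjusted p = 0.0126, lost in 1 of 20 alternatives, 0.0607) and Igf2bp2 higher (0.26 ± 0.08, limma adjusted p = 0.0464), which was lost in 13 of 20 alternatives (up to 0.274), among them the fit with the replicate number as a block (adjusted p = 0.0669). The stretch changes differed for 3, all negative: Hmga2 (-1.37 ± 0.27), Hmga1 (-0.71 ± 0.21) and Igf2bp1 (-0.43 ± 0.15; limma adjusted p = 0.00568, 0.0262 and 0.0481), with Hmga1 lost in 7 and Igf2bp1 in 14 of 19 alternatives (up to 0.0703 and 0.119).

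The Notch pathway, on which Dlk1 acts, had 14 of 20 genes tested. Stretched against unstretched control cells had 2 higher and 5 lower, led by Rbpj, the DNA-binding factor of the pathway (0.70 ± 0.07), and by Heyl (-0.68 ± 0.08), Jag1 (-1.17 ± 0.15) and Notch3 (-0.55 ± 0.12; limma adjusted p = 6.1e-06, 2.8e-05, 3.8e-05 and 0.00225), and with TPM scaling 1 higher and 8 lower. Wnt5a siRNA with stretch gave 3 higher and 0 lower, Dll4 (1.19 ± 0.27), Notch4 (0.67 ± 0.17) and Hey1 (1.02 ± 0.32; limma adjusted p = 0.00966, 0.0157 and 0.0327), lost in 1, 4 and 5 of 19 alternatives (up to 0.0918, 0.0583 and 0.128). Dll4 and Notch4 are known from endothelial cells, whose 11 markers summed to 57.8 to 94.2 FPKM in stretched Wnt5a siRNA cells, 31.5 to 44.0 in unstretched Wnt5a siRNA cells, 43.9 to 53.7 in stretched control cells and 41.9 to 52.7 in unstretched control cells. Their part in these changes was not tested. Without stretch Wnt5a siRNA gave 1 higher, Rbpj (0.26 ± 0.07, limma adjusted p = 0.0131, lost in 2 of 20 alternatives, up to 0.0616). Stretch with Wnt5a siRNA gave 3 higher and 4 lower, led by Heyl (-0.58 ± 0.08), Jag1 (-0.84 ± 0.15), Dll4 (1.46 ± 0.27) and Rbpj (0.35 ± 0.07; limma adjusted p = 9.4e-04, 0.00289, 0.00433 and 0.00448). The stretch changes differed for Rbpj (-0.35 ± 0.09), Notch4 (0.76 ± 0.24) and Dll4 (1.19 ± 0.39; limma adjusted p = 0.0188, 0.0396 and 0.0433), Rbpj being lost in 4 of 19 and Notch4 and Dll4 in 10 and 13 of 18 alternatives (up to 0.104, 0.0991 and 0.335).

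Genes of mannose 6-phosphate sorting, in which Igf2r acts, and of the plasminogen activator system had 8 of 10 tested. Stretch with control siRNA gave 2 higher, Plat, tissue plasminogen activator (1.15 ± 0.07), and Plaur, the urokinase receptor (1.53 ± 0.19), and 1 lower, Gga1 (-0.24 ± 0.08; limma adjusted p = 7.9e-07, 3.2e-05 and 0.0259), with Gga1 lost in 5 of 20 alternatives (up to 0.103). Wnt5a siRNA with stretch gave Gga2 higher (0.41 ± 0.09) and Gga3 (-0.39 ± 0.12) and Plaur (-0.56 ± 0.19) lower (limma adjusted p = 0.00985, 0.0344 and 0.0439), the last 2 lost in 8 and 13 of 20 alternatives (up to 0.151 and 0.179), and with TPM scaling 3 higher and 0 lower. Gga1, Gga2 and Gga3 encode adaptors that carry the receptor from the Golgi. Without stretch Wnt5a siRNA gave Plat (0.47 ± 0.07) and Plaur (0.55 ± 0.19) higher (limma adjusted p = 9.6e-04 and 0.0452), Plaur lost in 9 of 20 alternatives (up to 0.165). In Wnt5a siRNA cells stretch gave Plat (0.64 ± 0.07) and Plau (0.80 ± 0.21) higher (limma adjusted p = 2.0e-04 and 0.0245), Plau lost in 5 of 20 alternatives (up to 0.0909). The stretch changes differed for Plat (-0.51 ± 0.10) and Plaur (-1.10 ± 0.26; limma adjusted p = 0.00448 and 0.0124).

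The genes whose pattern over the 12 libraries was most like that of each imprinted gene were ranked by Pearson correlation of log2(FPKM + 1), as a description over libraries that share 4 groups. For H19 they were Fkbp7 (0.965), Pabpc1 (0.964), Cilp (0.956), Prrx2 (0.954) and Egfl7 (0.949). Cilp was at 12.2 FPKM in stretched Wnt5a siRNA cells, 3.80 in unstretched Wnt5a siRNA cells, 3.59 in stretched control cells and 2.57 in unstretched control cells on average. For Igf2 they were Gpm6b, Nadk, Itgbl1, Os9 and Tmem173 (0.95 to 0.955), and for Igf2r Ptx3, Sbno2, Kdelr1, Dcxr and Reg3b (0.837 to 0.873). For Cdkn1c they were Itm2c, March2, Mapk1ip1, Fzd1 and Nudt14 (0.947 to 0.957), and for Plagl1 Mark4, Rbm20, Llgl2, Cdh2 and Zfp523 (0.963 to 0.985). For Peg3 they were Ifi44, Rgl1, Rin2, Trim2 and Hecw2 (0.971 to 0.981), for Mest Aldoc, Fuca2, Adh5, Efnb3 and Osgep (0.923 to 0.975), and for Grb10 Prkar2b, Zfp238, Stox2, Lmbr1 and Tgm1 (0.936 to 0.955).

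Markers of other cell types were called in several of these comparisons. Of all tested genes 27.3% were called for Wnt5a siRNA with stretch, 28.5% without stretch and 16.0% for stretch of Wnt5a siRNA cells. The shares were 54.3% for stretch with control siRNA and 23.8% for the difference between the stretch changes. For stretch with control siRNA the macrophage and the smooth muscle calls were near 54.3%, and the endothelial calls below it. Of 15 fibroblast markers 13 were tested, and 7 were called higher and 0 lower for Wnt5a siRNA with stretch, 5 and 2 for the siRNA without stretch, 8 and 1 for stretch of Wnt5a siRNA cells, and 10 and 0 for stretch with control siRNA (5 and 1 with TPM scaling). Their summed level was 1.47, 1.45, 1.56 and 1.53-fold higher in these comparisons, against 4.24, 2.42, 3.01 and 1.72-fold for H19 and 1.83, 1.48, 1.71 and 1.38-fold for Igf2. H19, Igf2 and the fibroblast sum thus had their highest 3 libraries in stretched Wnt5a siRNA cells and their lowest mean in unstretched control cells. Col1a1, Col3a1 and Vim made up a large part of that sum, and single markers did not all follow it. Without stretch Dcn was at 89.9 to 111 FPKM with Wnt5a siRNA and 173 to 256 with control siRNA. Fbln1 was at 4.21 to 5.29 and 7.98 to 17.2 there. The part of fibroblasts in the H19 and Igf2 values was not tested. Stretched control replicate 3, whose fibroblast sum was 10102 FPKM, had the highest H19 and Igf2 of its group. Its H19 was 30.8 FPKM against 22.1 and 27.7, and its Igf2 6.39 against 4.51 and 4.02. Without it H19 was still called higher in the comparisons that contain it, Wnt5a siRNA with stretch and stretch with control siRNA. Igf2 was still called higher without it for Wnt5a siRNA with stretch. For stretch with control siRNA Igf2 was not called with or without it. That change was 0.36 with all libraries and 0.20 to 0.48 with 1 library left out. Of 11 endothelial markers 10 were tested, with 3 higher and 1 lower, 0 and 1, 6 and 0, and 1 and 1 in the same order, and 5 positive and 0 negative for the difference between the stretch changes. That last count was 1 and 0 with quantile normalization and 3 and 0 without stretched control replicate 3. The endothelial sum, like H19 and Igf2, was highest in the 3 stretched Wnt5a siRNA libraries, and Egfl7, among the genes most like H19, is one of these markers. The part of endothelial cells in the H19 and Igf2 values was not tested. Of 13 macrophage and leukocyte markers 12 were tested, and 11 were higher for stretch with Wnt5a siRNA, 7 for stretch with control siRNA (3 with TPM scaling) and 0 for the siRNA with or without stretch, where 1 and 8 were lower. All 11 smooth muscle and pericyte markers were tested, with 2 higher and 5 lower, 2 and 1, 2 and 6, and 2 and 4 in the order of comparisons used for fibroblasts. Cardiomyocyte markers, all 11 tested, were called in 0 cases higher and 3 lower, 1 and 4, 0 and 5, and 3 and 5 in the order of comparisons used for fibroblasts. The first of these was 0 and 8 without stretched control replicate 3, and with quantile normalization the last was 0 and 8. Actc1, cardiac actin, made up a large part of the sums in stretched control cells. It was at 8353, 11437 and 6565 FPKM in stretched Wnt5a siRNA cells, 6586, 8365 and 4717 in unstretched Wnt5a siRNA cells, 18338, 18628 and 13569 in stretched control cells and 8289, 8321 and 8407 in unstretched control cells. The median log2 change of the 11 markers for stretch with control siRNA was -0.36, with 3 called higher and 5 lower. Their part in the lower Cdkn1c, Peg3, Mest, Plagl1 and Grb10 values was not tested.

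**Figure D5:**
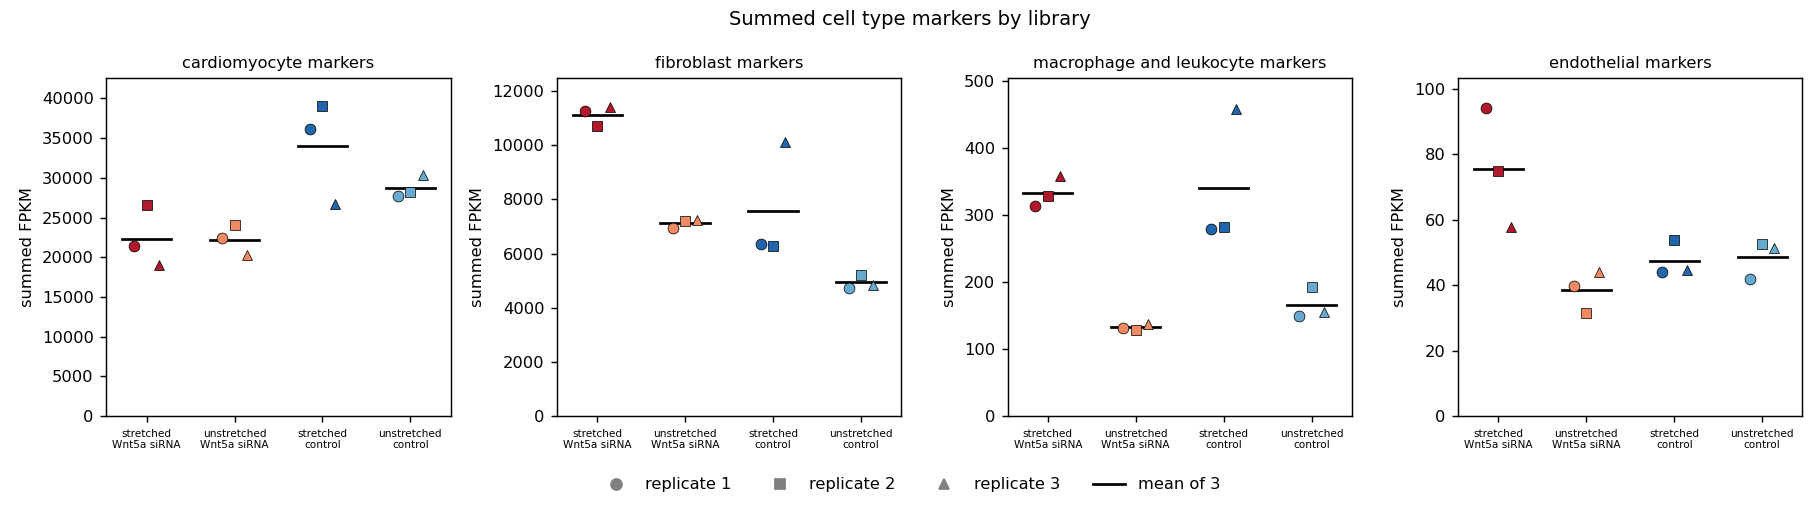
Summed FPKM (y axis, linear, from 0) of cardiomyocyte, fibroblast, macrophage and leukocyte, and endothelial markers in each library, by group along the x axis; bars are means of 3. Fibroblast sums are highest in stretched Wnt5a siRNA cells (10688 to 11422 FPKM), and stretched control replicate 3 lies away from its group in the first 3 panels.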

How the data were processed

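The deposited files, 1 per library, give FPKM per gene. Per the submitters' processing notes the authors used TopHat2 2.1.1, Bowtie2, Cuffdiff 2.2.1 and the rn6 genome; the sources used here give no gene annotation, strand setting or read counts. RNA was prepared with a kit that marks strand and selects poly(A) RNA, per the labels' protocols. Libraries were grouped by the treatment label. No library was left out.

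log2(FPKM + 1) of genes with at least 1 FPKM in at least 3 libraries was fitted with limma 3.58.1 in R 4.3.3 on 4 group means (8 residual degrees of freedom, eBayes with trend, 2-sided, Benjamini-Hochberg over 10518 genes), with 5 contrasts. The fit was tested on simulated data. Alternatives were a pseudocount of 0.1, no filter, a filter at 5 FPKM, TPM scaling, quantile normalization, no trend, the replicate number as a block, only the groups compared, and leaving out each library.

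All genes of the group were named. Of each context list the called genes with the 4 smallest adjusted p in a comparison were named (the 2 most abundant where none was called). Some neighbours by position, and 5 genes per imprinted gene by likeness, were also named. The genes of these lists given by library (Kcnq1, Copg2, Ddc and Cdkn1a) were picked after their values were seen. The 9 genes and all lists were chosen with earlier results of these data known. Same-numbered libraries deviated together between the 2 Wnt5a siRNA groups (correlations of deviations 0.184, 0.242 and 0.143). There the block changed no call of the 8 tested genes. For Wnt5a siRNA with or without stretch these correlations were 0.058 to 0.231, and for stretch with control siRNA -0.019 to 0.249. Sequences and gene order come from RefSeq tables for GRCr8.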

Additional observations from a re-analysis of the deposited data

Results flagged for a closer look

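The change with stretch differed between Wnt5a siRNA and control siRNA cells for 4 of the 8 tested genes, by a test of the difference itself on the log2 scale, against 23.8% of all tested genes. For H19 the stretch change was 0.83 larger with Wnt5a siRNA (limma adjusted p = 0.0428), both changes being positive, a call lost in 11 of 19 alternatives (adjusted p 0.0138 to 0.104). For Cdkn1c it was 1.73 larger (limma adjusted p = 0.00826), from a change of 0.26 with Wnt5a siRNA and -1.47 with control siRNA. For Peg3 the difference was 0.76 (limma adjusted p = 0.0166), with changes of 0.02 and -0.73; the Cdkn1c and Peg3 calls held in all 19. For Mest it was 1.46 (limma adjusted p = 0.0319), with changes of 0.01 and -1.45, a call lost in 8 of 19 alternatives (adjusted p 0.00839 to 0.0820). The target Wnt5a also differed, by 0.70 (limma adjusted p = 0.0244, lost in 5 of 19 alternatives, up to 0.056), and it was lower by stretch with control siRNA. The cause of these differences was not tested.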

How the results depend on the processing

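Counts of all genes called moved most when single libraries were left out, from 1092 to 4662 for Wnt5a siRNA with stretch (2875 with all libraries; 1208 in a fit of only the groups compared), 1758 to 3935 for Wnt5a siRNA without stretch, 848 to 2625 for stretch with Wnt5a siRNA, 4810 to 6025 for stretch with control siRNA and 1572 to 3634 for the difference between the stretch changes. Of the 8 tested imprinted genes 5 to 6, 1 to 5, 1 to 3, 5 to 7 and 2 to 4 were then called in these comparisons, and without a filter 2 in place of 4 for the last. No called change of the 8 genes reversed.

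Changes that were not called changed sign as follows. Igf2r was at -0.13 with TPM scaling and -0.073 with quantile normalization for stretch with control siRNA, and at -0.10 and -0.075 for stretch with Wnt5a siRNA, where leaving out 1 library gave -0.022 to 0.050; its difference between stretch changes was 0.028 with TPM scaling. With TPM scaling the stretch change with Wnt5a siRNA was -0.096 for Peg3 and -0.11 for Mest, and leaving out 1 library gave Peg3 -0.077 to 0.10 and Mest -0.32 to 0.34 there. For Wnt5a siRNA without stretch it gave Peg3 -0.066 to 0.11 and Mest -0.45 to 0.22. The Plagl1 difference was -0.22 to 0.50, negative without stretched control replicate 3. The cause was not tested.

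With the replicate number as a block the calls for Cdkn1c by Wnt5a siRNA with stretch (adjusted p = 0.0671; range over alternatives 0.0128 to 0.145) and Igf2 by Wnt5a siRNA without stretch (0.0573; 0.0124 to 0.164) were lost, leaving 5 and 3 of the 8 genes called, with 2928 and 3093 of all genes; no other call of the 8 genes changed. By the labels same-numbered libraries share only a number. Their deviations had correlations of 0.219, 0.095 and 0.231 for Wnt5a siRNA with stretch and 0.16, 0.058 and 0.186 without. A differently numbered pair reached 0.214 with stretch. Whether same-numbered libraries are pairs is not known. Notch genes called by Wnt5a siRNA with stretch were 1 with quantile normalization in place of 3. Without stretched control replicate 3 the mannose 6-phosphate genes called were 5 in place of 3 for Wnt5a siRNA with stretch, 5 in place of 2 without stretch and 4 in place of 2 for stretch with Wnt5a siRNA, and the IGF axis genes whose stretch changes differed were 7 in place of 4. With TPM scaling 5 relatives by sequence were called in place of 2 for Wnt5a siRNA with stretch, and 5 imprint maintenance genes in place of 2 for stretch with Wnt5a siRNA. Depth is unknown, so precision at low FPKM, as for Dlk1, could not be given.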
